A study of Mus musculus with 4 samples.

Results

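The clustered protocadherin genes are 58 neighbouring cell adhesion genes of the mouse, arranged in an alpha, a beta and a gamma cluster on chromosome 18. They were found by gene name, as every row of the expression table named as an alpha, beta or gamma protocadherin with a variable or C-type number, which gave 58 of 56883 genes. The alpha cluster has 14 members (12 variable, 2 C-type), the beta cluster 22, and the gamma cluster 22 (12 of the A family, 7 of the B family and 3 C-type). In the *Dnmt1* KO libraries the alpha, beta and variable gamma genes were higher as a rule, at 1.39, 1.26 and 1.25 times in their summed levels. The gamma cluster as a whole, with its C-type genes, stood at 1.15 times. By contrast, *Pcdhgc5*, the last C-type gene of the gamma cluster, fell from 404 and 229 normalized counts in the control libraries to 59.2 and 49.2. Of the 56 members with enough reads to test, 13 rose (23.2%, against 8.3% of all genes) and 1 fell (8.99% of all genes). The first count depended on single libraries. It was 2 with DESeq2, no larger a share than the 5.06% of all genes called higher by that method.

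Each clustered protocadherin is a cell surface protein with extracellular cadherin repeats that bind the same isoform on another membrane. A neuron switches on a small set of the variable isoforms, each from its own promoter, and the combination lets neurites of the same cell recognise and avoid each other. In the alpha and gamma clusters every first exon is spliced to the same 3 constant exons, which encode a shared cytoplasmic tail, while the beta genes are single exons without a shared tail. Promoter choice is known to depend on the insulator protein CTCF, on cohesin and on DNA methylation of the variable promoters, which is why the family is of interest when a DNA methyltransferase is deleted. C-type genes stand at the end of the alpha and gamma clusters and are expressed more evenly among neurons, and *Pcdhgc4* is known for its part in the survival of cortical interneurons.

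RNA was sequenced from tdTomato-positive cells of the basal telencephalon of E14.5 embryos. The controls carried *Sst-Cre/tdTomato* and the KO embryos *Sst-Cre/tdTomato/Dnmt1 loxP2*, with 2 libraries per genotype, so that Cre and the tdTomato reporter were present in both. Cre was driven from the somatostatin locus, which becomes active in postmitotic interneurons, and the reporter marks cells that have had Cre, not cells in which the *Dnmt1* deletion was checked one by one. Every library was made from cells pooled over several embryos, so the p-values do not measure the spread between embryos. With 2 libraries per genotype, the limma fit used here also moderates each gene's spread between pools towards that of genes of similar level. An exact permutation p of 2 against 2 libraries cannot fall below 0.33.

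The libraries held 6970247 to 8376711 reads, of which 0.0989% to 0.121% (7198 to 8877 reads) fell on the clustered protocadherins. *Dnmt1* itself had 2238 and 2341 normalized counts in the control and 2164 and 2210 in the KO libraries (log2 fold change -0.07 ± 0.05 SE, adjusted p = 0.461, limma). This gene-level value does not separate the floxed exons from the rest of the transcript. The paper reports reduced DNMT1 immunostaining in tdTomato-positive cells of E14.5 KO embryos, and slightly lower *Dnmt1* RNA in KO cells sorted from the E14.5 cortex. All 10 interneuron markers on a list (among them *Gad1*, *Lhx6* and *Sst*) rose, with summed levels of 21947 and 22050 against 32481 and 32818. Markers of other cells fell: 8 of 10 radial glia genes (with 1 higher; sums 12460 to 12513 against 7515 to 7754), 11 of 12 cell cycle genes (6788 to 7015 against 4793 to 4808), 8 of 10 excitatory lineage genes (3103 to 3139 against 1536 to 1679), 8 of 10 blood genes (2433 to 2610 against 587 to 592) and 11 of 18 other non-neuronal genes (1039 to 1087 against 481 to 496). No marker was at 0 in all libraries. In bulk samples, fewer cells of a type and less RNA per cell cannot be told apart, and the part of these marker shifts in the protocadherin differences below was not tested.

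In the GENCODE annotation of GRCm39 all 58 members lie on the plus strand of chromosome 18, the alpha cluster at 37063237 to 37320716, the beta cluster at 37397991 to 37657532 and the gamma cluster at 37794846 to 37975014. Each alpha transcript shares 2860 to 2866 bp with the other alpha genes (48.6% to 54.9% of its length, 456 bp of it coding), and each gamma transcript 2116 to 2207 bp (41.5% to 46.4%, 372 bp coding). A beta transcript shares nothing with the others, except for *Pcdhb21* and *Pcdhb22*, which overlap by 455 bp. Of all stretches of 75 bases, the read length, 40.0% to 52.0% occurred in only that member in the alpha, 47.3% to 59.3% in the gamma and 91.0% to 100% in the beta transcripts. A read from a constant exon could therefore come from any gene of its cluster, and the alpha and gamma values per gene depend on how such reads were divided, which the table does not show. The cluster totals do not depend on the division among members, but 3 other genes with enough reads, described below, hold exon bases of the alpha or gamma members and stay outside the totals. Among the beta genes the question touches only the overlapping pair.

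**Figure D1:**
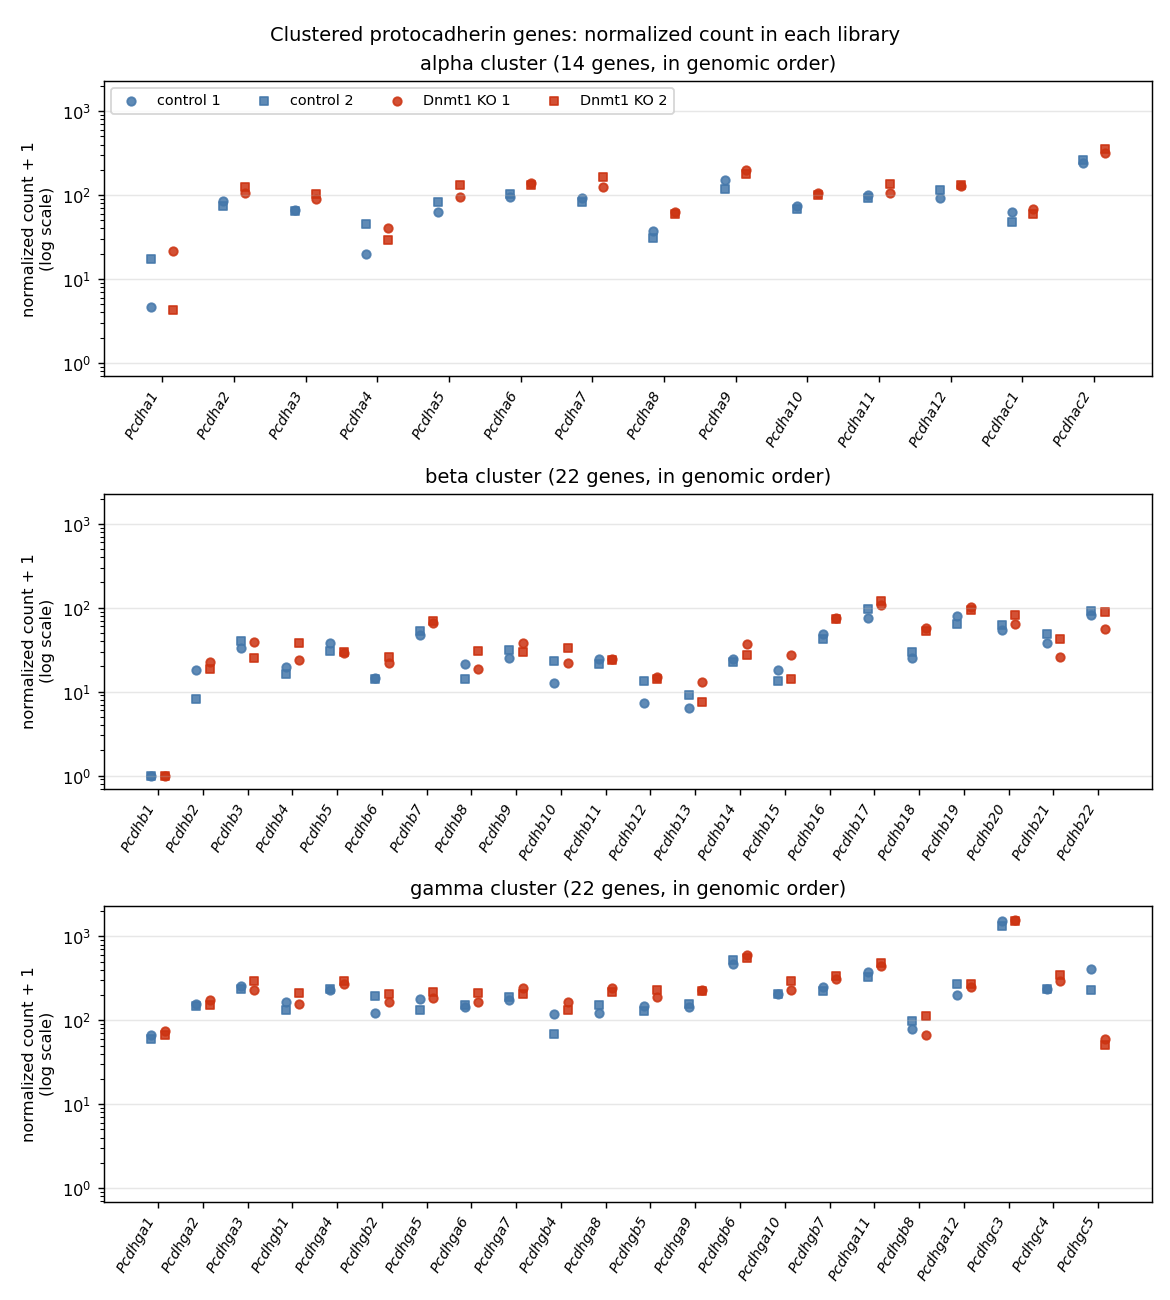
Normalized count plus 1 (vertical, log scale) of each clustered protocadherin gene (horizontal, in genomic order within its cluster) in each of the 4 libraries, controls in blue and Dnmt1 KO in red. Most gamma genes lie above most beta genes, *Pcdhgc3* is the highest at 1347 to 1581, and *Pcdhgc5* is the one gene whose KO points lie far below the controls.

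Reads were found for 57 of 58 members in every library. *Pcdhb1* was at 0 in all 4 libraries, where 3 reads, the most that a count of 0 allows, would be 2.68 to 3.28 normalized counts. *Pcdhb13* fell below the minimum mean of 10 normalized counts, with 5.37 and 8.17 in the control and 11.8 and 6.56 in the KO libraries. Per kb of transcript, the mean level over the 4 libraries reached 314 normalized counts per kb for *Pcdhgc3*, followed by *Pcdhgb6* at 111 and *Pcdhga11* at 84.0. The alpha genes ranged up to 49.8 per kb (*Pcdhac2*) and the beta genes up to 21.1 (*Pcdhb17*). The order of levels per kb was much the same in both genotypes (Spearman's rho 0.94 across 57 genes, which share libraries and, in part, exons). *Pcdhgc5* was the exception, 4th of the family in the controls (65.5 per kb) and 39th in the KO libraries (11.2 per kb).

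Among the 56 members tested with limma on log2(normalized count + 1), 13 were higher and 1 lower in the KO libraries at a Benjamini-Hochberg adjusted p below 0.05. The share called higher was 23.2%, against 8.3% of all 14323 genes tested, and the background for lower calls was 8.99%. Of the 56 members, 50 (89.3%) had a log2 fold change above 0, against 49.5% of all genes. In 36 members (64.3%) both KO libraries lay above both controls, which held for 28.4% of all genes, and in 2 both lay below (29% of all genes). The median log2 fold change was 0.39 over the members and -0.0033 over all genes. Because alpha and gamma members share constant exons, the members are not independent of each other, and these counts are not counts of separate observations.

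The number of calls depended on single libraries. With 1 library left out, its genotype is represented by a single library that is assumed to vary like the others, and the spread comes from the other genotype and from all genes. The count was 3 without control 2 (5.49% of all genes called higher), 5 without Dnmt1 KO 2 (6.28%), 9 without control 1 (6.01%) and 11 without Dnmt1 KO 1 (6.7%). Among the 14 called members, only *Pcdhga8*, *Pcdhga9* (higher) and *Pcdhgc5* (lower) were called in all 4 of these fits. DESeq2 called 2 members higher (*Pcdhga8* and *Pcdhga9*), against 5.06% of all genes, and 5 of the 56 members had no adjusted p. In this fit, as in the one without control 2, the members' share was no larger than that of all genes. Limma without a mean-variance trend called 0 members and 0 of all genes (21 members had an unadjusted p below 0.05). By contrast, edgeR called 14 (8.56% of all genes), and a fit with each library's transcript length and GC trend removed called 22 (10.3% of all genes), 12 of them among the 13.

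**Figure D2:**
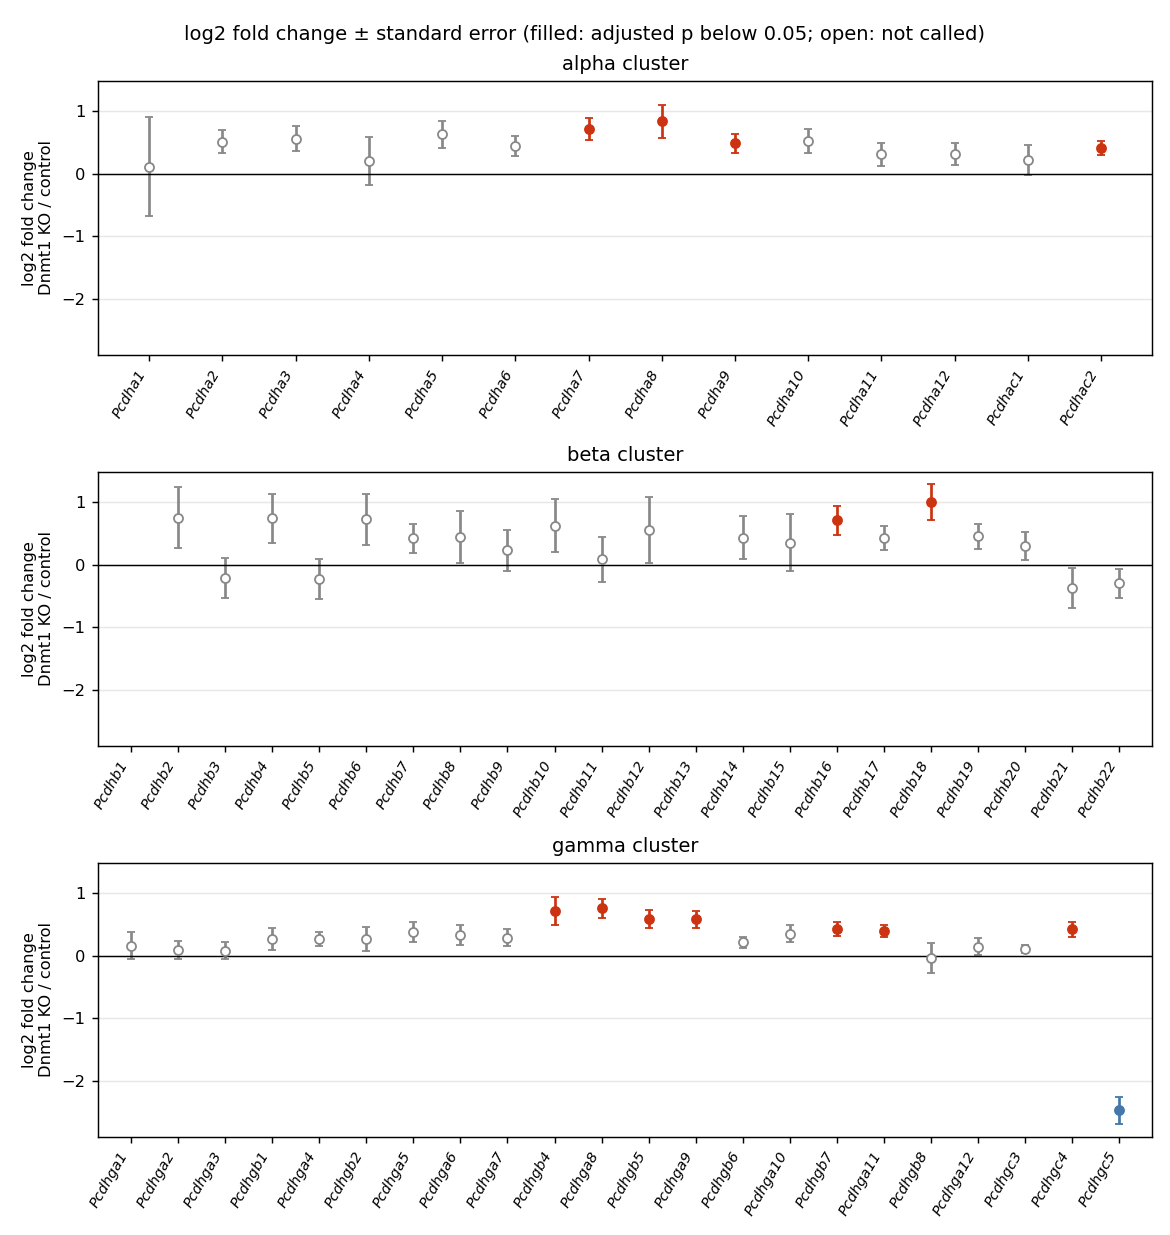
Log2 fold change, Dnmt1 KO over control, with its standard error (vertical) for the 56 tested members in genomic order (horizontal); filled red points were called higher, the filled blue point lower and open grey points were not called. Of the points, 50 lie above 0, and *Pcdhgc5* lies at -2.47.

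The 5 C-type genes went in different directions. *Pcdhgc5* (ENSMUSG00000102543.6) had 404 and 229 normalized counts in the controls and 59.2 and 49.2 in the KO libraries. Both KO libraries lay far below both controls, and the gene's mean was 5.84 times lower. The log2 fold change was -2.47 ± 0.22 (SE, n = 2 per genotype, limma, adjusted p = 2.12e-06), and it stayed between -2.88 and -2.06 when each library was left out, with a largest adjusted p of 0.000167. Its control libraries differed from each other by 0.82 on the log2 scale, an unusual gap. Of 8418 tested genes with a mean of at least 100, only 11 (0.131%) had control libraries at least that far apart, and the median gap was 0.10. In limma without the mean-variance trend, the adjusted p of *Pcdhgc5* was 0.0668.

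*Pcdhgc4*, the neighbour just before it, showed the opposite direction, with 236 and 235 in the controls against 292 and 343 (0.42 ± 0.12, adjusted p = 0.0204, limma). The controls were nearly equal and both KO libraries lay above them. Its call was kept only without Dnmt1 KO 1, with adjusted p of 0.0705 without control 1, 0.0785 without control 2 and 0.188 without Dnmt1 KO 2. *Pcdhgc3*, the most abundant member, had 1537 and 1347 in the controls and 1581 and 1530 in the KO libraries. The KO libraries overlapped the range of the controls, and the log2 fold change of 0.11 ± 0.07 did not pass (adjusted p = 0.303, limma).

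Of the alpha C-type genes, *Pcdhac2*, the last of its cluster, had 242 and 259 in the controls and 317 and 356 in the KO libraries (0.42 ± 0.11, adjusted p = 0.0166, limma). Both KO libraries exceeded both controls, and the call was lost without control 1 (adjusted p = 0.0919) or Dnmt1 KO 2 (0.125). *Pcdhac1* had 61.7 and 47.0 against 68.1 and 59.0. These values overlapped, and the difference did not pass (0.23 ± 0.24, adjusted p = 0.569, limma).

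**Figure D3:**
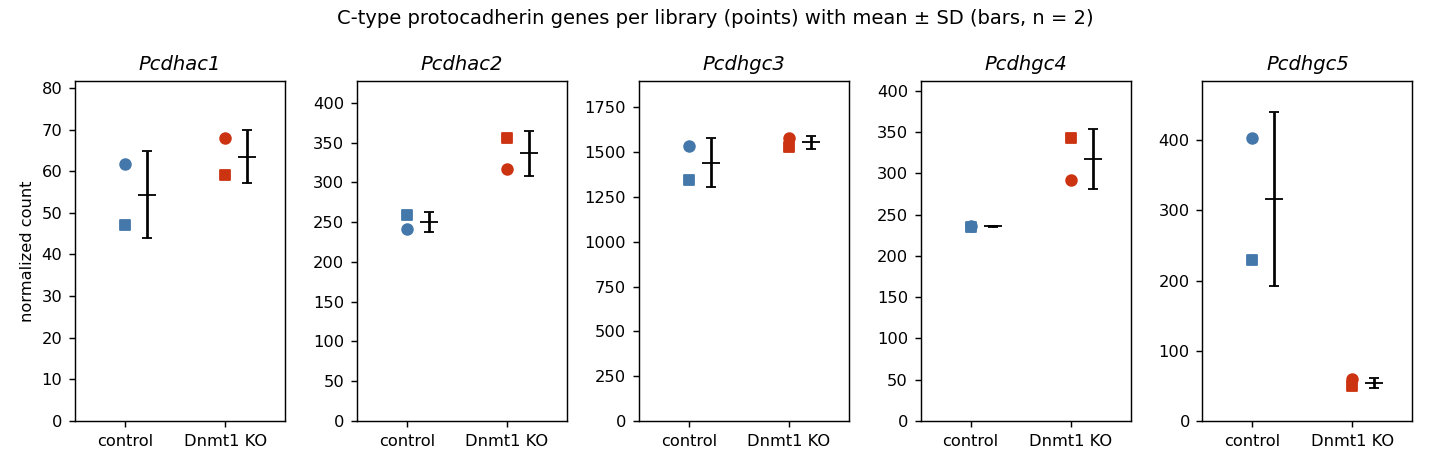
Normalized count (vertical, from 0, own scale per panel) of the 5 C-type genes in the control (blue) and Dnmt1 KO (red) libraries; circles are replicate 1, squares replicate 2, and black bars the mean ± SD (n = 2). *Pcdhac2* and *Pcdhgc4* were higher in both KO libraries, *Pcdhgc5* fell to 54.2 ± 7.08 from 316 ± 124, and the other genes overlapped.

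The 19 variable gamma genes are A and B members mixed along the chromosome. 3 of the 12 A genes (25%) and 3 of the 7 B genes (42.9%) were called higher, against 8.3% of all genes. None was called lower (8.99% of all genes), and the median log2 fold changes were 0.31 (A) and 0.27 (B). *Pcdhga8* (ENSMUSG00000103897.2) had 120 and 151 normalized counts in the controls and 244 and 214 in the KO libraries. Both KO libraries lay well above the controls (0.76 ± 0.15, adjusted p = 0.00257, limma). *Pcdhga9* (ENSMUSG00000102440.2) had 142 and 156 against 228 and 221, again without overlap (0.59 ± 0.13, adjusted p = 0.00647, limma). For these 2 genes the adjusted p stayed at or below 0.0484 whichever library was left out.

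*Pcdhgb4* and *Pcdhgb5* lie beside them on the chromosome, so that *Pcdhgb4*, *Pcdhga8*, *Pcdhgb5* and *Pcdhga9*, the gamma genes with the 4 largest positive changes, are consecutive genes, an arrangement seen after the values were known. *Pcdhgb5* had 146 and 129 in the controls and 187 and 227 in the KO libraries (0.59 ± 0.15, adjusted p = 0.0124, limma). *Pcdhgb4* had 119 and 67.4 against 165 and 133, and here too no KO library fell within the controls (0.72 ± 0.23, adjusted p = 0.0393, limma). Its control libraries were far apart, by 0.81 on the log2 scale, and without control 2, the low one, its log2 fold change dropped to 0.31 (adjusted p = 0.376). The call of *Pcdhgb4* was also lost without Dnmt1 KO 1 (adjusted p = 0.0804), and that of *Pcdhgb5* without control 2 (0.0922) or Dnmt1 KO 2 (0.106).

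*Pcdhga11*, the A gene with the highest level per kb, had 374 and 329 in the controls and 447 and 477 in the KO libraries (0.40 ± 0.10, adjusted p = 0.0127, limma). *Pcdhgb7* had 251 and 223 against 308 and 332 (0.43 ± 0.12, adjusted p = 0.0167, limma). In both genes the genotypes did not overlap, and both calls were lost without control 2 (adjusted p of 0.105 and 0.119) or Dnmt1 KO 2 (0.0589 and 0.0846). *Pcdhgb6*, the B gene with the highest level per kb, had 466 and 525 in the controls and 601 and 548 in the KO libraries. The KO libraries lay above the controls, but the difference did not pass (0.21 ± 0.09, adjusted p = 0.129, limma). The remaining 12 variable gamma genes were not called either, with log2 fold changes from -0.04 (*Pcdhgb8*) to 0.38 (*Pcdhga5*).

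In the alpha cluster all 14 genes had a log2 fold change above 0 (49.5% of all genes), with a median of 0.47. They share constant exons, so they are not 14 separate observations. Of the 14, 4 were called higher (28.6%, against 8.3% of all genes). *Pcdha7*, *Pcdha8* and *Pcdha9*, the variable genes called, are neighbours, an arrangement seen after the values were known. The uncalled *Pcdha3* and *Pcdha5* had larger log2 fold changes (0.56 and 0.63) than *Pcdha9* (0.49). *Pcdha7* had 91.3 and 81.7 normalized counts in the controls and 124 and 164 in the KO libraries (0.72 ± 0.18, adjusted p = 0.0129, limma). *Pcdha8*, a gene of low level, had 36.7 and 29.6 against 62.1 and 57.9 (0.84 ± 0.26, adjusted p = 0.0381, limma). In both, the KO libraries lay above the controls. *Pcdha9*, the variable alpha gene with the highest level per kb, had 150 and 117 against 196 and 178, also without overlap (0.49 ± 0.16, adjusted p = 0.0416, limma).

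These 3 calls depended on single libraries. That of *Pcdha8* was lost in each fit without a library (adjusted p from 0.0644 to 0.190), that of *Pcdha7* without control 2 (0.0864) or Dnmt1 KO 2 (0.131), and that of *Pcdha9* without control 2 (0.285) or Dnmt1 KO 1 (0.144). Just outside the threshold stood *Pcdha5*, with 62.6 and 80.7 in the controls and 93.7 and 131 in the KO libraries (0.63 ± 0.21, adjusted p = 0.0540, limma). Its KO libraries lay above both controls. The other 8 alpha genes ranged from 0.11 (*Pcdha1*, at 3.28 to 20.7 normalized counts) to 0.56 (*Pcdha3*).

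The beta genes, which share no exon with the rest, had fewer reads, a median of 122 per gene over all libraries against 375 in the alpha and 762.5 in the gamma cluster, and wider errors (median SE 0.33 against 0.19 and 0.14). Of the 20 tested, 16 had a log2 fold change above 0 (49.5% of all genes), with a median of 0.43. Called higher were 2 (10%), near the 8.3% of all genes, so these are single genes and no result on the beta cluster. *Pcdhb18* had 24.2 and 28.6 normalized counts in the controls and 56.2 and 51.4 in the KO libraries. The KO libraries lay clear of the controls, at a change of 1.00 ± 0.28 on the log2 scale, the largest increase of the family (adjusted p = 0.0231, limma). *Pcdhb16* had 47.4 and 40.8 against 74.0 and 72.1, again without overlap, and was the member just inside the threshold (0.72 ± 0.23, adjusted p = 0.0445, limma).

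Without 1 library these beta calls were mostly lost. *Pcdhb18* passed only without Dnmt1 KO 2 (adjusted p of 0.110 without control 1, 0.0557 without control 2 and 0.0942 without Dnmt1 KO 1), and *Pcdhb16* in no such fit (0.0832 to 0.199). *Pcdhb17*, the beta gene with the highest level per kb, had 73.4 and 94.9 in the controls and 108 and 118 in the KO libraries, a difference without overlap that did not pass (0.43 ± 0.19, adjusted p = 0.142, limma). Log2 fold changes below 0 were seen for *Pcdhb3*, *Pcdhb5*, *Pcdhb21* and *Pcdhb22*, between -0.36 and -0.21, and none was called. The last 2 are the overlapping pair. At a median SE of 0.33, a change of 0.47, the alpha median, was not detectable for a typical beta gene.

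Summed over the cluster, so that the division of constant exon reads among its members plays no part, the alpha genes had 1176 and 1188 normalized counts in the controls and 1590 and 1698 in the KO libraries, 1.39 times more. The 22 beta genes had 691 and 722 against 863 and 915, which is 1.26 times. The gamma cluster had 5754 and 5438 against 6303 and 6593, or 1.15 times. For all 3 clusters the KO libraries lay above both controls, and the gap between genotypes was larger than that between replicates. The log2 ratios were 0.48 ± 0.07, 0.33 ± 0.07 and 0.20 ± 0.07 (SD of the difference, n = 2 per genotype). Over all 58 genes the sums were 7621 and 7348 against 8756 and 9205.

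Within the gamma cluster, the A genes summed to 2229 and 2261 in the controls and 2726 and 2905 in the KO libraries (1.25 times), and the B genes to 1348 and 1367 against 1644 and 1766 (1.26 times). The variable gamma genes as a whole, at 1.25 times, were thus close to the beta genes. The 3 gamma C-type genes together had 2177 and 1810 against 1932 and 1922, and the KO sums fell between those of the controls. Without *Pcdhgc5* the gamma C-type sum was 1774 and 1581 against 1873 and 1873. The spread between the control libraries in the C-type sum came partly from *Pcdhgc5* and partly from *Pcdhgc3*. Unlike the whole cluster total, these sums depend on how constant exon reads were divided among the members.

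**Figure D4:**
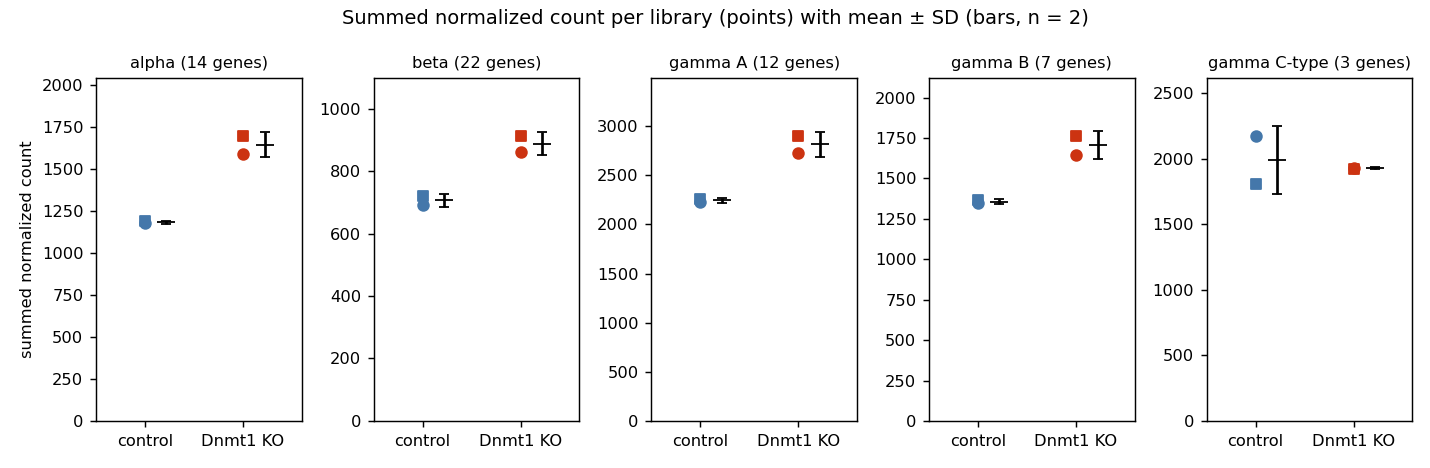
Summed normalized count (vertical, from 0, own scale per panel) of the alpha, beta, gamma A, gamma B and gamma C-type genes in the control (blue) and Dnmt1 KO (red) libraries; circles are replicate 1, squares replicate 2, black bars the mean ± SD (n = 2). In 4 panels both KO libraries lie above both controls, and in the gamma C-type panel the KO sums of 1932 and 1922 lie between the controls at 2177 and 1810.

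C-type genes held 37.8% and 33.3% of the gamma sum in the controls and 30.7% and 29.2% in the KO libraries, a lower share in both KO libraries. The alpha and gamma shares and isoform numbers given here depend on how constant exon reads were divided among the members. With *Pcdhgc5* left out, the shares were 33.1% and 30.4% against 30.0% and 28.6%, and the nearest libraries were then 0.35 percentage points apart. *Pcdhgc5* alone held 7.01% and 4.20% in the controls and 0.939% and 0.746% in the KO libraries, while *Pcdhgc3* held 26.7% and 24.8% against 25.1% and 23.2%. In the alpha cluster the C-type share was 25.8% in both controls and 24.2% and 24.5% in the KO libraries. The effective number of isoforms (the exponential of the Shannon entropy of the shares) was 11.3 and 11.6 against 11.8 and 11.3 in the alpha cluster, 16.9 and 16.5 against 17.3 and 16.8 in the beta cluster, and 15.3 and 15.9 against 15.6 and 16.3 in the gamma cluster, with overlap in each.

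Other annotated genes on the same strand also overlap the clusters. Of 11 such genes, 5 had enough reads and 2 were called, both higher. *Gm38182*, a non-coding RNA that begins downstream of the first exon of *Pcdhgc5* and shares 41.0% of its exon bases with the gamma genes, had 5.37 and 8.17 in the controls and 21.7 and 32.8 in the KO libraries (1.86 ± 0.48, adjusted p = 0.0135, limma). It gained 20.5 normalized counts on average where *Pcdhgc5* lost 262, and the other 21 gamma genes together had 1114 more. Gene-level counts cannot tell apart a loss of the *Pcdhgc5* first exon from another division of the constant exon reads.

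*Gm36858*, a pseudogene within the alpha cluster just before *Pcdha8* with no exon in common with a member, had 8.95 and 15.3 in the controls and 44.4 and 28.4 in the KO libraries, without overlap (1.52 ± 0.41, adjusted p = 0.0185, limma). *Gm19035*, another alpha cluster pseudogene, had 22.4 and 31.6 against 51.3 and 47.0 and did not pass (0.86 ± 0.30, adjusted p = 0.0611, limma). *Gm37013*, annotated from the alpha to the gamma cluster and made up wholly of exon bases of members, had 56.4 and 53.1 against 60.2 and 73.2. *Gm53048*, a gamma cluster pseudogene, had 13.4 and 14.3 against 16.8 and 27.3, and neither of them was called. Of 11 genes on the opposite strand, 2 had enough reads and 0 were called.

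Genes that act on clustered protocadherin promoters were examined next. Of 25 genes for CTCF, cohesin and its loaders, DNA methylation and demethylation, and repressors such as *Smchd1* and *Setdb1*, 3 rose and 1 fell, against 8.3% and 8.99% of all genes, and the median log2 fold change was 0.02. These counts are near the background, so the genes named next are single genes and no result on the list. *Nipbl*, a cohesin loader, had 1131 and 1263 in the controls and 1533 and 1564 in the KO libraries (0.37 ± 0.07, adjusted p = 0.0013, limma). *Tet3*, an enzyme of DNA demethylation, had 2235 and 2102 against 2714 and 2827 (0.35 ± 0.05, adjusted p = 0.000369, limma), and its relative *Tet2* rose by 0.30. *Uhrf1*, which brings DNMT1 to replicating DNA, had 572 and 531 against 339 and 337 (-0.70 ± 0.09, adjusted p = 8.87e-05, limma), beside the fall of the cell cycle markers given above. *Ctcf* had 831 and 760 against 746 and 759 and was not called.

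Of 21 genes for intracellular partners of the protocadherins and the proteases that process them, 20 were tested, 2 rose and 0 fell, again near the 8.3% of all genes that were called higher. *Wasf1*, a subunit of the actin-regulating WAVE complex, had 824 and 828 in the controls and 979 and 981 in the KO libraries (0.25 ± 0.07, adjusted p = 0.0225, limma). The kinase gene *Fyn* had 1445 and 1437 against 1676 and 1641 (0.20 ± 0.06, adjusted p = 0.0266, limma). Both genes were higher in both KO libraries. The non-clustered protocadherins have promoters and loci of their own. Of 11, 7 rose and 1 fell (8.3% and 8.99% of all genes), the median log2 fold change was 0.49, and their levels summed to 6535 and 6441 against 8618 and 8491. *Pcdh17* had 536 and 493 in the controls and 815 and 772 in the KO libraries (0.62 ± 0.08, adjusted p = 8.95e-05, limma), and *Pcdh19* had 1190 and 1077 against 1666 and 1615 (0.53 ± 0.07, adjusted p = 5.43e-05, limma). *Pcdh12*, known from endothelial cells, had 17.9 and 26.5 against 4.93 and 6.56 (-1.77 ± 0.51, adjusted p = 0.0249, limma).

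The summed alpha, beta and gamma levels (1.39, 1.26 and 1.15 times) stood below the interneuron marker sum, which was 1.48 times higher in the KO libraries, and above that of 10 genes of neuronal maturation (among them *Map2*, *Syt1* and *Stmn2*), which was 1.12 times higher with 4 of 10 genes up and 2 down. Whether the higher protocadherin levels went with the larger share of interneuron transcripts was not tested. KO libraries also had more reads from long transcripts, by 0.050 to 0.055 on the log2 scale per doubling of length, against at most 0.0033 between libraries of the same genotype. The members' median transcript is 4819 bp, 0.51 doublings above that of all genes tested (3375 bp). With the length and GC trend removed their median log2 fold change was 0.43, against 0.04 over all genes.

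**Figure D5:**
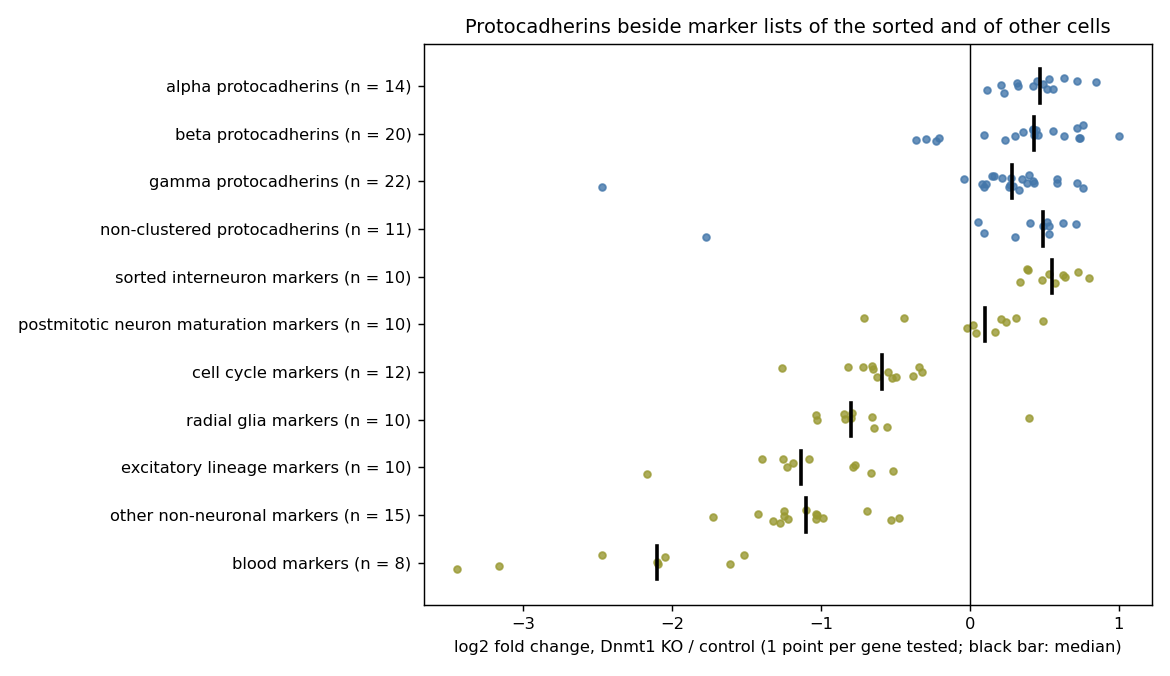
Log2 fold change, Dnmt1 KO over control (horizontal), of each tested gene (point) in the alpha, beta and gamma clusters, the non-clustered protocadherins and 7 marker lists (rows), with the median of each row as a black bar. The protocadherin medians lie at 0.47, 0.43, 0.28 and 0.49 beside 0.55 for interneuron markers, and the medians of cell cycle, radial glia, excitatory, other non-neuronal and blood markers lie between -2.10 and -0.59.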

How the data were processed

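Total RNA was sequenced with a stranded, rRNA-depleted protocol in 4 libraries (control 1 and 2, Dnmt1 KO 1 and 2). Per the labels, Trim Galore, STAR, Salmon and the GRCm39 build were used. The authors deposited 1 signal value per gene and library, a gene count divided by a DESeq2 (version 1.32.0 per the labels) size factor. The strand setting of the quantification is not given in the sources used here, and an Ensembl release listed among the study's resources is not tied to this step. All 89965 values above 0 were whole multiples of 1 read (100%, tolerance 0.0001 reads), so reads were recovered for count-based alternatives, and edgeR on these reads called 2528 of all genes and limma 2476.

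The test was limma 3.58.1 (R 4.3.3) with a mean-variance trend on log2(normalized count + 1), over 14323 genes with a mean of at least 10, with Benjamini-Hochberg adjustment over all of them and a call at 0.05. A fold change on this scale understates that of low genes. Alternatives were edgeR 4.0.16, DESeq2 1.42.0, limma-voom, other pseudocounts, filters and scalings, a length and GC trend, a replicate block and leaving out each library. Transcript structure was taken from GENCODE, 1 transcript per gene, and the fits were tested on simulated data. The ± values are limma standard errors or SDs between libraries, and the floors cover counting error only.

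Members, lists and naming rules were chosen with earlier results of these data known. Named with full values were the C-type genes, the member with the highest level per kb in each family, the called variable members with the 8 largest changes, the members next to the threshold, the called genes with the 2 largest changes in each direction of each list (of the marker lists, counts and sums are given instead) and same-strand genes overlapping a cluster. *Pcdhgb7*, *Pcdhb13*, *Ctcf* and *Dnmt1*, and members given only as the ends of a range, were named in addition.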

Additional observations from a re-analysis of the deposited data

How the results depend on the processing

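The count of members called higher (13) stayed between 12 and 18 with other pseudocounts, filters, TMM or quantile scaling, edgeR and limma-voom. It was 22 with the length and GC trend removed, 2 with DESeq2, where 5 members had no adjusted p and 14 had an unadjusted p below 0.05, and 0 in limma without the trend, where all genes share 1 variance prior and none of 14323 genes was called. Leaving out each replicate in turn gave 3 to 11. The count of members called lower (*Pcdhgc5*, 1) was 0 in limma without the trend, in which *Pcdhgc5* had an adjusted p of 0.0668. It was 1 in every other fit of all 4 libraries. When a replicate was left out the log2 fold change of *Pcdhgc5* stayed between -2.88 and -2.06. The replicate numbers in the labels do not mark a shared litter or day, and same-numbered libraries did not deviate together (correlation -0.08). With the replicate block 17 members were called higher, all 13 among them, and 1 lower. The alpha, beta, variable gamma and gamma C-type totals, the gamma C-type share and the effective number of gamma isoforms moved by less than 1 SD under other scalings and per kb. The whole gamma total and the effective numbers of the other clusters were not rerun. Leaving out each library gave log2 ratios of 0.43 to 0.52 for the alpha, 0.29 to 0.37 for the beta, 0.28 to 0.38 for the variable gamma and -0.18 to 0.09 for the gamma C-type sum, whose sign was thus not determined. Over the 19 members given with full values, 239 alternative values kept their side of the threshold, 55 lost a call and 8 gained one, with 0 changes of direction. Of all 56 members tested, 11 changed sign when a library was left out, among them *Pcdha1*, *Pcdhb3*, *Pcdhb21*, *Pcdhb22* and *Pcdhgb8*, and 0 of these had been called. Depth limits the beta genes most.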
